A study of Mus musculus with 6 samples.

Results

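The proteasome genes are the genes named Psma, Psmb, Psmc, Psmd, Psme, Psmf or Psmg with a number in the annotation of the deposited files, without the 3 immunoproteasome catalytic subunits *Psmb8*, *Psmb9* and *Psmb10* and without pseudogenes. By this rule on names there were 45 members among 54446 genes: 7 of the alpha ring, 8 of the beta ring, 6 ATPases and 3 other subunits of the base, 8 subunits of the lid, 6 activators and inhibitors, 6 assembly factors, and *Psmc3ip*. The last, a meiotic recombination protein named for its binding to an ATPase, matches by name and is no proteasome subunit. RNA was measured by RNA-Seq in 6 libraries of CD8+ T cells from spleens of 8 week old wild-type C57BL/6 mice, enriched by negative selection. The 3 groups of 2 libraries were Unstimulated, fresh cells; Control, cells kept for 72 h on plates coated with antibodies to CD3 and CD28, without magnets; and SMF, cells stimulated alike for 72 h on permanent magnets giving a static magnetic field of 0.3 T. The design asks how stimulation changes these genes, and how a field present during stimulation does. Nothing in the sources says that replicates came from separate mice or cultures, so the p-values measure only the spread between these libraries.

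The proteasome is the main protease of the cytosol and nucleus for proteins tagged with ubiquitin. Its 20S core is a barrel of 2 outer alpha rings, which gate the entrance, and 2 inner beta rings, in which *Psmb5*, *Psmb6* and *Psmb7* carry the chymotrypsin-like, caspase-like and trypsin-like active sites. The 19S regulatory particle sits on the core: its lid removes ubiquitin, and the ATPases of its base unfold the substrate and thread it inward. In T cells and other immune cells, *Psmb8*, *Psmb9* and *Psmb10* can take the place of the 3 catalytic subunits, and the activator of *Psme1* and *Psme2* can take the place of the regulatory particle. Both exchanges are known for their induction by interferon gamma and for their part in making peptides for MHC class I. *Nfe2l1* is a transcription factor known to activate proteasome genes through antioxidant response elements (AREs).

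Promoter windows of 300 bases, from 250 before to 50 after the annotated start, were found in RefSeq (GRCm38.p6) for 38 of the 45 members. The letters TGACNNNGC of the ARE, searched on both strands, occurred in the windows of 6 of these 38 genes (15.8%), against 16.6% of the 8597 genes tested that have a window and 12.4% of all 32851 windows. The letters CCGGAAG, the core of sites for ETS factors, occurred in 15 of 38 (39.5%), against 21.96% of genes tested and 8.86% of all windows. The 15 include *Psmc3ip*, which is no subunit. Members and genes tested were counted by gene, with a match in any of their windows, and all windows were counted singly. The CCAAT box was found in 14 of 38 members (36.8%) and 42.4% of genes tested, and the E-box CACGTG in 3 of 38 (7.89%) and 11.7%. The letters GCGCATGC were found in 3 members (7.89%) and in 6.27% of genes tested. Each motif was searched on both strands, and a match is a description of the window only. The 6 windows shown all hold ARE or ETS letters. They belong to the catalytic subunits *Psmb5* and *Psmb6*, the ATPase *Psmc1*, the scaffold *Psmd2* and the activators *Psme3* and *Psme4*. Other genes given with statistics below, among them *Psma1*, *Psma4*, *Psmb4* and *Psmd14*, have windows with neither motif. A link between motifs and changes in level was not tested. Capitals mark ARE letters in *Psmb5* and *Psmb6*, ETS letters in *Psmc1*, *Psmd2* and *Psme3*, and both in *Psme4*, in which the ETS letters come first and do not overlap the ARE letters.
Psmb5: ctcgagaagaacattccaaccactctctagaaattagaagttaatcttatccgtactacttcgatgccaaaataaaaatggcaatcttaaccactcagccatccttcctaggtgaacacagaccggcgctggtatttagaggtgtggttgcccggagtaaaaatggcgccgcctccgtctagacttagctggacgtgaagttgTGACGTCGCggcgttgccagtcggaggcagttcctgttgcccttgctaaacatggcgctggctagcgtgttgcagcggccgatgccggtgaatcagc
Psmb6: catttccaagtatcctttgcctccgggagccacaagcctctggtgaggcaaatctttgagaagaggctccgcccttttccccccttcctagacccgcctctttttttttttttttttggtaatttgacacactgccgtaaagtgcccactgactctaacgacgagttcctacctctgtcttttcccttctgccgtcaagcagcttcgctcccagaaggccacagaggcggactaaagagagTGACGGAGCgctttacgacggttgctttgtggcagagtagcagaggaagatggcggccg
Psmc1: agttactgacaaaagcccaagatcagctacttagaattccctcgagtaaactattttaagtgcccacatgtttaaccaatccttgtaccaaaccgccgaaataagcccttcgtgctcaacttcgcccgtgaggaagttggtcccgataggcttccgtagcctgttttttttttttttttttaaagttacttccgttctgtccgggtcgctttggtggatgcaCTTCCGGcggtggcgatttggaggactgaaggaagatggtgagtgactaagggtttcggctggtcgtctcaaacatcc
Psmd2: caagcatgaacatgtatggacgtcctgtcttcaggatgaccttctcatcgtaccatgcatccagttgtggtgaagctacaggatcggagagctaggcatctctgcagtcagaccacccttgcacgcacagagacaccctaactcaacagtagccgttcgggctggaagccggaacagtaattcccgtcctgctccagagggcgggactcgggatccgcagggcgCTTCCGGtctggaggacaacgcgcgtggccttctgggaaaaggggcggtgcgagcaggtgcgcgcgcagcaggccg
Psme3: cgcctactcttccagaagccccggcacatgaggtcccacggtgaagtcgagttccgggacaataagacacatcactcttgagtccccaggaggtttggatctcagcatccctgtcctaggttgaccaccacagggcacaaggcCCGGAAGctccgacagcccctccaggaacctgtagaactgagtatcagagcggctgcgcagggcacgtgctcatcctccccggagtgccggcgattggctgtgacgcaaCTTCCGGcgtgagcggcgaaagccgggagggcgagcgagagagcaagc
Psme4: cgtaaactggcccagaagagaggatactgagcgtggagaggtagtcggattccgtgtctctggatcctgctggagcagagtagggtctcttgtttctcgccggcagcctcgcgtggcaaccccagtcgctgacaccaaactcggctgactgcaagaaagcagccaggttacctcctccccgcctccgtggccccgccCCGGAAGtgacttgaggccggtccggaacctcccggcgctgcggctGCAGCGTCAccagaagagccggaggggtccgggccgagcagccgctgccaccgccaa
These windows lie at chr14:54617946-54618245 (minus strand) for *Psmb5*, chr11:70525107-70525406 (plus) for *Psmb6*, chr12:100109952-100110251 (plus) for *Psmc1*, chr16:20651402-20651701 (plus) for *Psmd2*, chr11:101315963-101316262 (plus) for *Psme3* and chr11:30771525-30771824 (plus) for *Psme4*. The ARE letters begin 47 bases before the start in *Psmb5*, 9 in *Psmb6* and 7 in *Psme4*.

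Values are FPKM, fragments scaled by transcript length and by the depth of the library, summed over the transcripts of each gene. The bases covered came to 64.4 to 172 Mb in the Unstimulated and Control libraries and to 227 to 259 Mb in the SMF libraries. Protein-coding genes took 49.1% to 50.5% of the summed FPKM in the former 4 libraries and 68.7% to 69.2% in the SMF libraries. Dates in the file headers put replicate 1 of Unstimulated and Control in June 2017, replicate 2 of both in November 2017 and both SMF libraries in October 2018, so the header date and the field cannot be told apart. All 6 listed CD8 T cell markers were expressed in every library, and summed to 608 and 779 FPKM in Unstimulated, 365 and 581 in Control and 938 and 850 in SMF. Of the CD4 T cell list, *Cd4* lay at 0 to 4.68 FPKM and *Foxp3*, the factor of regulatory T cells, at 4.92 to 20.7 FPKM. The 5 listed B cell markers summed to 113 to 166 FPKM in the Unstimulated libraries, 8.31 to 23.3 in Control and 2.71 to 4.85 in SMF. Of 6 listed myeloid markers 4 were in the files and summed to 116 to 147 FPKM in Unstimulated and 41.1 to 53.8 in the stimulated libraries, in which *Lyz2* was listed at 0 and *Csf1r*, at 41.1 to 53.8 FPKM from 63.9 and 68.5, made up nearly the whole sum. The 5 listed markers of stimulation summed to 58.8 and 49.4 FPKM in Unstimulated, 1926 and 1902 in Control and 2659 and 4827 in SMF, led by *Gzmb*, which encodes granzyme B of killer cells, with 10.2 and 11.7, 1494 and 1565, and 2282 and 4283. The sums of B cell and myeloid markers move with each comparison against Unstimulated, and those of CD8 T cell and stimulation markers with SMF against Control. Of the latter 2 lists, *Cd3e*, *Cd8b1*, *Myc* and *Ifng* overlapped between Control and SMF, and the other genes did not. *Ifng*, which encodes interferon gamma, lay at 26.3 and 12.7 FPKM in Unstimulated, 310 and 175 in Control and 187 and 308 in SMF. The part of these markers in the results was not tested. In such bulk samples, fewer cells of a type and less RNA per cell cannot be told apart.

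The 45 proteasome genes together took 983 and 987 FPKM in fresh cells, 1793 and 2109 in Control and 3858 and 3955 in SMF. The 3 groups did not overlap. As a share of the FPKM of all protein-coding genes, which removes the difference in that class between libraries, they took 0.415% and 0.399% in Unstimulated, 0.680% and 0.767% in Control and 1.14% and 1.16% in SMF. The order of the groups was thus the same on both scales. The sums and shares include *Psmc3ip*, which is no subunit. It had 123 and 23.1 FPKM in Unstimulated, or 0.052% and 0.0093% of the FPKM of protein-coding genes. Without it, the sums and the shares of the Unstimulated libraries lie further apart. The 14 expressed core subunits summed to 238 and 308 FPKM in Unstimulated, 608 and 842 in Control and 1598 and 1607 in SMF. The 17 subunits of the regulatory particle summed to 398 and 400 FPKM, 623 and 803, and 1592 and 1613 in the same order. The 6 assembly factors, which help to build the particle and are not part of it, summed to 20.9 and 29.5, 34.9 and 44.8, and 81.1 and 70.6 FPKM.

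**Figure D1:**
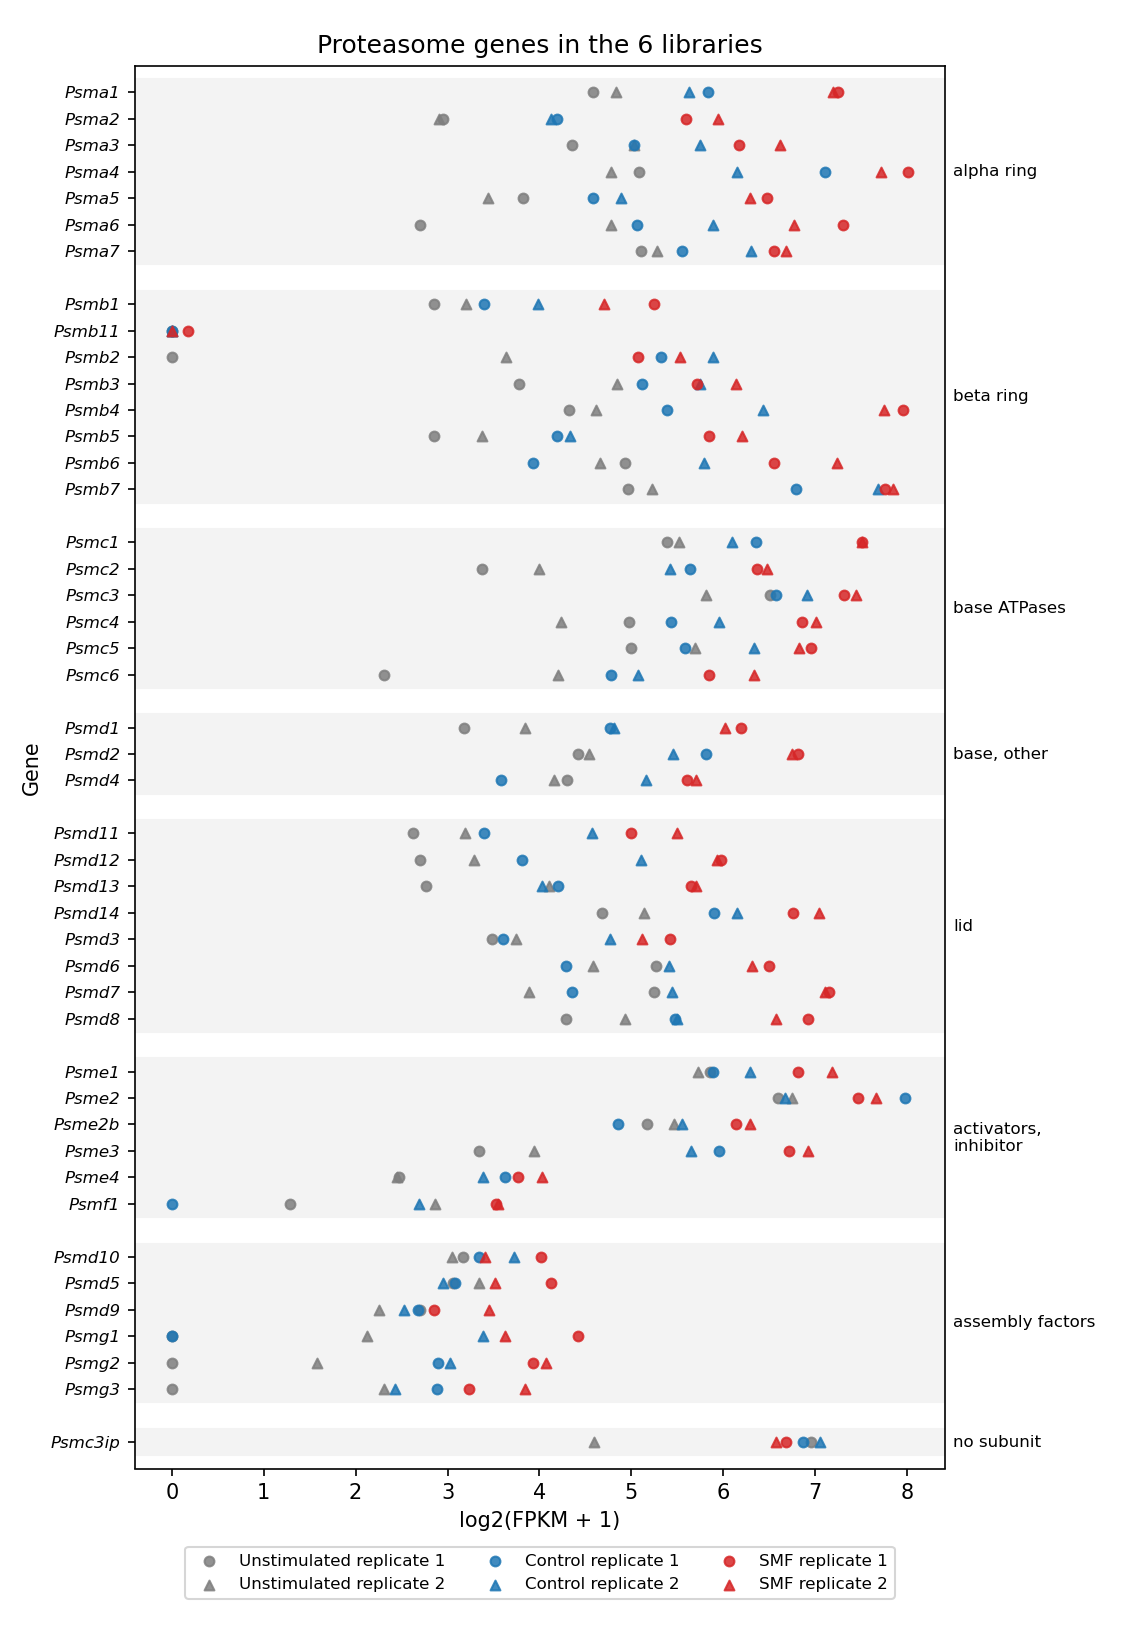
Each row is one of the 45 proteasome genes, grouped by role, and the horizontal axis gives its level in each library as log2(FPKM + 1). Grey, blue and red points are Unstimulated, Control and SMF, circles replicate 1 and triangles replicate 2; most core and regulatory genes run from grey over blue to red, and the assembly factors lie to the left, with *Psmb11*, *Psmf1* and *Psme4*.

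Differences were tested with limma on log2(FPKM + 1) across the 14991 genes whose mean over the 6 libraries reached 1 FPKM, 44 of the members among them. *Psmb11*, the beta subunit of the thymus cortex, was listed at 0 in 5 libraries and at 0.131 FPKM in SMF replicate 1 and was not tested. A call needed a difference of 2-fold or more with an unadjusted p no higher than 0.05, the thresholds of the study, and Benjamini-Hochberg adjusted p-values over all genes tested are given with the statistics of single genes. Of the calls described with such statistics, 3 of 10 in Control against Unstimulated held with each of the 6 libraries left out in turn, 11 of 14 in SMF against Unstimulated and 4 of 8 in SMF against Control, counted over the genes named by a fixed rule. Fold changes are on the log2(FPKM + 1) scale, which understates the change of low genes.

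Stimulation without magnets was accompanied by higher levels of 40 of 44 proteasome genes, and 19 were called higher and 0 lower in Control than in Unstimulated cells. Over all genes tested, 12.3% were called higher and 12.6% lower. The median log2 fold change was 1.04 for the members and -0.05 for all genes. Among protein-coding genes with several exons, the median was 0.01 and 13.6% were called higher. Both Control libraries lay above both Unstimulated libraries for 30 members, and for 24.8% of all genes. After adjustment by limma, 4 members (*Psma4*, *Psmb7*, *Psmc2* and *Psme3*) had an adjusted p under 0.05, against 4.52% of all genes that did and were higher. Control and Unstimulated share header dates by replicate number, and the median of the members was 1.02 between the libraries of June 2017 and 0.98 between those of November 2017. Without either Control library or either SMF library, which enter the fit's estimate of spread, 0 members kept an adjusted p under 0.05. The count of calls fell to 10 without Control replicate 2, to 12 without Unstimulated replicate 1, and to 13 with one summed FPKM over protein-coding genes, beside 11.1%, 9.99% and 10.8% of all genes.

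Stimulated in the field, the same genes stood further from fresh cells. All 44 were higher in SMF than in Unstimulated cells, and 36 were called higher and 0 lower, with a median log2 fold change of 2.19. Of all genes, 22.4% were called higher and 14.8% lower, with a median of 0.27. Of protein-coding genes with several exons, 28.3% were called higher, with a median of 0.62, and 49.7% were higher without overlap. The SMF libraries lay above the Unstimulated libraries for 43 members, all but *Psmc3ip*, and for 39.7% of all genes. An adjusted p under 0.05 was reached by 29 members and by 14.2% of all genes in this direction. The 8 members not called were *Psme2*, *Psme2b*, *Psmf1*, *Psmd5*, *Psmd9*, *Psmd10*, *Psmg1* and *Psmc3ip*, so every tested subunit of the core and of the regulatory particle was called. With SMF replicate 1 or 2 left out, 0 members kept an adjusted p under 0.05, while 30 and 28 were called, beside 15.3% of all genes in both fits. Without Unstimulated replicate 1 or 2, 16 and 19 kept one. The share of higher genes among all genes called was 60.1%, and 50.6% with libraries shifted to one median and 44.1% with one summed FPKM over protein-coding genes.

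Between the stimulated groups, 42 of 44 members were higher in SMF than in Control, 21 were called higher and 0 lower, and the median log2 fold change was 1.16. All genes had a median of 0.32, which leaves 0.84 for the members relative to it. Protein-coding genes with several exons, a set closer in type to the members, had a higher median of 0.58. Of that set, 16.1% were called higher and 49.3% were higher without overlap. Of all genes, 12.5% were called higher and 5.72% lower. The 2 SMF libraries lay above the Control libraries for 39 members and for 37.4% of all genes. By limma's adjusted p, 0 members passed 0.05, and over all genes 0.0200% passed and were higher. An unadjusted limma p no higher than 0.05 was reached by 25 members (56.8%) and, in either direction, by 21.1% of all genes. The calls depended on the scaling. With libraries shifted to one median, and also with one summed FPKM over protein-coding genes, 9 members were called higher and 0 lower, beside 5.85% and 6.21% of all genes called higher under the same scalings. The 9 were the same in both: *Psma1*, *Psma2*, *Psma5*, *Psmb4*, *Psmb5*, *Psmb6*, *Psmd6*, *Psmd7* and *Psmd13*. Among all genes called, 68.6% were higher by FPKM, 37.8% with libraries at one median and 41.6% with one sum over protein-coding genes. The count was 9 without SMF replicate 1, 10 without SMF replicate 2 and 11 without Control replicate 1, beside 5.61%, 6.43% and 7.49% of all genes, and 26 without Control replicate 2, beside 15.2%.

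**Figure D2:**
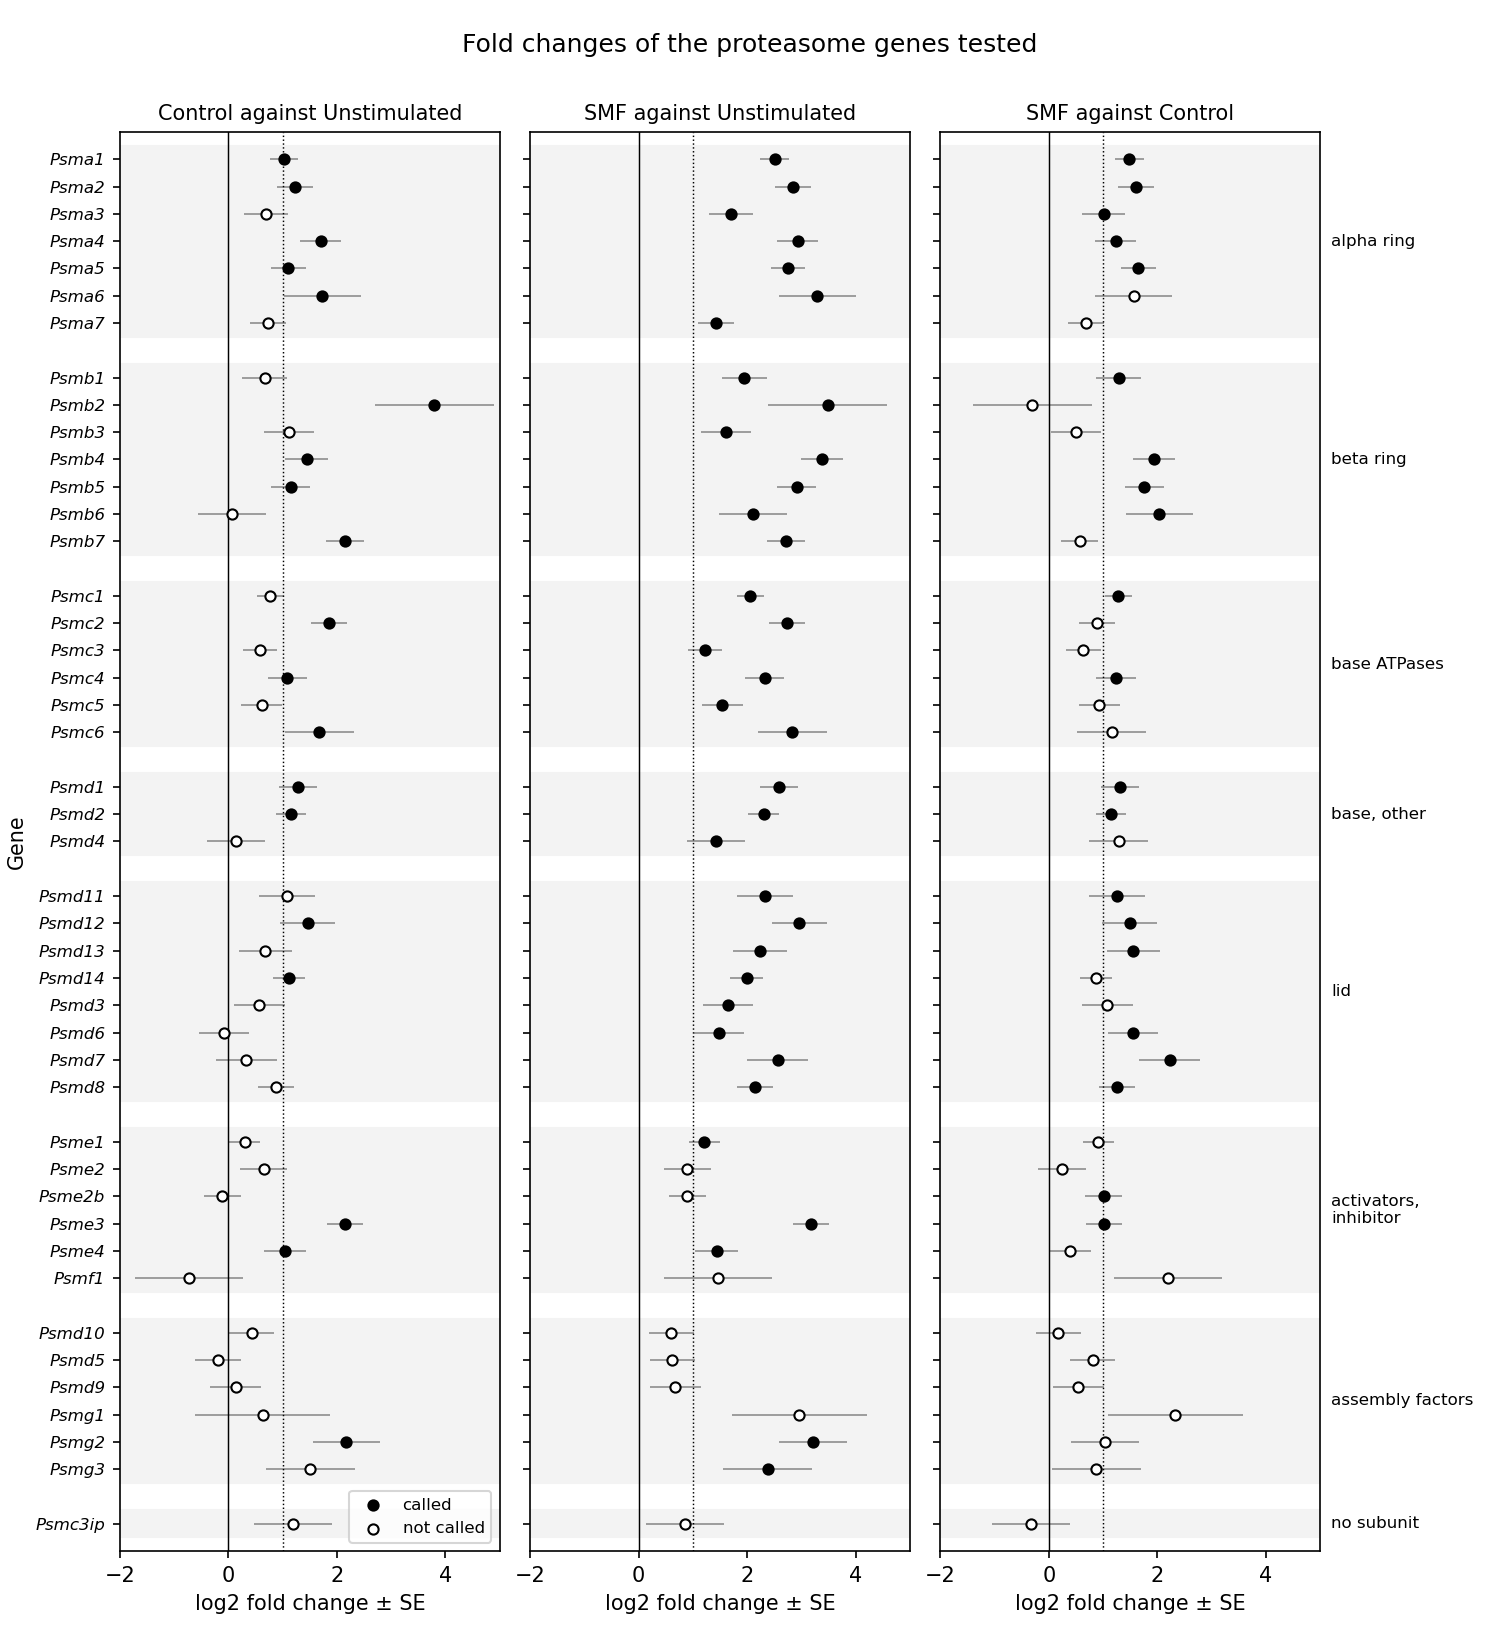
Points give the log2 fold change of each of the 44 genes tested in the 3 comparisons, with bars of 1 SE from limma, filled where the gene was called; the dotted line marks a fold change of 2. All filled points lie to the right: 19 for Control against Unstimulated, 36 for SMF against Unstimulated and 21 for SMF against Control.

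The alpha ring forms the outer rings of the core and its gate. Its 7 genes did not overlap between Unstimulated and Control, nor between Control and SMF, beside 24.8% and 37.4% of all genes higher without overlap. In Control against Unstimulated 5 of 7 were called higher, in SMF against Unstimulated 7 of 7 and in SMF against Control 5 of 7. These shares of 71.4%, 100% and 71.4% stand beside 12.3%, 22.4% and 12.5% of all genes. *Psma4*, the alpha subunit with the highest levels in SMF, lay at 32.9 and 26.4 FPKM in Unstimulated, 137 and 70.1 in Control and 257 and 209 in SMF. It was 3.25-fold higher in Control than in Unstimulated (log2 1.70, SE 0.38, limma adjusted p = 0.0464), a call lost without Unstimulated replicate 2, and its exons face those of *AY074887* on the other strand. *Psma1* had 22.9 and 27.6 FPKM in Unstimulated, 56.2 and 48.5 in Control and 151 and 145 in SMF. The groups were far apart beside their spread. *Psma1* was 5.70-fold higher in SMF than in Unstimulated (log2 2.51, SE 0.27, limma adjusted p = 0.00436) and 2.80-fold higher than in Control (log2 1.49, SE 0.27, limma adjusted p = 0.136). *Psma6* had the widest gap of the ring between the Unstimulated replicates, with 5.51 and 26.5 FPKM in Unstimulated, 32.3 and 58.2 in Control and 156 and 108 in SMF. From Unstimulated to SMF it differed by 3.29 on the log2 scale (SE 0.70, limma adjusted p = 0.0231), and by 2.26 without Unstimulated replicate 1 and 4.33 without replicate 2. *Psma2* was the lowest of the ring in the stimulated libraries, with 16.4 and 17.3 FPKM in Control and 47.4 and 60.5 in SMF, from 6.50 and 6.75 in Unstimulated. *Psma3*, *Psma5* and *Psma7* had 9.86 to 37.9 FPKM in Unstimulated, 22.9 to 77.9 in Control and 71.3 to 102 in SMF.

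The beta ring holds the active sites. Of its 7 expressed genes 4 were called higher in Control than in Unstimulated, 7 in SMF than in Unstimulated and 4 in SMF than in Control. These shares of 57.1%, 100% and 57.1% stand beside 12.3%, 22.4% and 12.5% of all genes. *Psmb5*, the chymotrypsin-like subunit whose promoter window holds the ARE letters shown above, lay at 6.22 and 9.38 FPKM in Unstimulated, 17.2 and 19.2 in Control and 56.6 and 72.7 in SMF. The groups did not overlap in any comparison. On the log2 scale *Psmb5* was higher by 1.15 in Control than in Unstimulated (SE 0.36, limma adjusted p = 0.103), by 2.91 in SMF than in Unstimulated (SE 0.36, limma adjusted p = 0.00605) and by 1.76 in SMF than in Control (SE 0.36, limma adjusted p = 0.136). The first call was lost without Unstimulated replicate 1 or Control replicate 2. *Psmb7*, the trypsin-like subunit, lay at 30.2 and 36.5 FPKM, 109.8 and 205, and 216 and 230.2 in the 3 groups. It showed its larger step on stimulation, with a log2 fold change of 2.14 from Unstimulated to Control (SE 0.35, limma adjusted p = 0.0223), 2.71 from Unstimulated to SMF (SE 0.35, limma adjusted p = 0.00646) and 0.57 from Control to SMF (SE 0.35, limma adjusted p = 0.390). An exon of *Nek6* faces it and shares 255 bases, and *Nek6* itself lay at 16.3 to 21.95 FPKM in Unstimulated and 38.4 to 47.9 in the stimulated libraries. *Psmb6*, the caspase-like subunit, showed the opposite order. It had 29.4 and 24.4 FPKM in Unstimulated, 14.2 and 54.3 in Control and 92.9 and 150.4 in SMF. The 2 Control libraries thus lay on both sides of the Unstimulated ones. Its log2 fold change was 0.06 from Unstimulated to Control (SE 0.63, limma adjusted p = 0.969), 2.10 from Unstimulated to SMF (SE 0.63, limma adjusted p = 0.0568) and 2.04 from Control to SMF (SE 0.63, limma adjusted p = 0.175). The first of these was -0.083 with gene TPM. The second call was lost without any one of the Unstimulated or SMF libraries, and the last without any one library other than Control replicate 2. With Control replicate 1 or 2 left out, the last value came to 1.11 or 2.97.

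Among the beta subunits without an active site, *Psmb4* reached the highest SMF levels, with 19.1 and 23.6 FPKM in Unstimulated, 41.0 and 85.1 in Control and 248 and 214 in SMF. It was 10.4-fold higher in SMF than in Unstimulated (log2 3.38, SE 0.39, limma adjusted p = 0.00551) and 3.84-fold higher than in Control (log2 1.94, SE 0.39, limma adjusted p = 0.136). On transcripts annotated as coding, *Psmb2* had 8.39 and 41.0 FPKM in Control and 23.7 and 38.3 in SMF. Summed over all transcripts, it was the one subunit with lower mean levels in SMF than in Control. By these sums it was listed at 0 and at 11.4 FPKM in Unstimulated, and lay at 39.1 and 58.3 in Control and 32.7 and 45.3 in SMF. The stimulated groups overlapped (log2 -0.30, SE 1.10, limma adjusted p = 0.916), while both lay above Unstimulated. Its log2 fold change from Unstimulated was 3.79 in Control (SE 1.10, limma adjusted p = 0.0875) and 3.49 in SMF (SE 1.10, limma adjusted p = 0.0655). These rest on the Unstimulated libraries, being 1.98 and 1.67 without replicate 1 and 5.61 and 5.30 without replicate 2, and both calls were lost without any one of the Control or SMF libraries. *Psmb1* and *Psmb3* had 6.24 to 27.8 FPKM in Unstimulated, 9.56 to 52.8 in Control and 25.1 to 69.5 in SMF. *Psmb3* is one of 20 members that share at least 200 bases at 90% identity or more with another gene, and for *Psmb3* the 6 such genes summed to 6.12 to 16.6 FPKM.

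The 3 constitutive catalytic subunits were compared with the 3 immunoproteasome subunits within each library, a ratio that the scaling of a library cannot change. The summed FPKM of *Psmb5*, *Psmb6* and *Psmb7* was 0.658 and 0.650 of that of *Psmb8*, *Psmb9* and *Psmb10* in Unstimulated, 1.11 and 1.48 in Control and 1.54 and 1.54 in SMF. The stimulated libraries all lay above the fresh ones, and both SMF libraries above both Control libraries, although SMF and Control replicate 2 differed by less than the Control libraries did. With 2 libraries against 2, an exact two-sided permutation test cannot give less than p = 0.333, so no test is given. *Psmb8*, the immunoproteasome counterpart of *Psmb5*, lay at 34.5 and 50.4 FPKM in Unstimulated, 57.7 and 88.9 in Control and 145 and 151 in SMF. It was called higher in SMF than in Unstimulated (log2 1.80, SE 0.33, limma adjusted p = 0.0156) and than in Control (log2 1.04, SE 0.33, limma adjusted p = 0.182). *Psmb9*, the counterpart of *Psmb6*, had 45.3 and 44.8 FPKM, 63.5 and 73.9, and 58.8 and 123, and *Psmb10*, that of *Psmb7*, 20.3 and 12.8, 6.41 and 24.6, and 33.0 and 20.2. Neither was called in any comparison. Pair by pair the ratios went different ways. *Psmb5* over *Psmb8* was 0.180 and 0.186 in Unstimulated, 0.298 and 0.216 in Control and 0.389 and 0.483 in SMF. *Psmb6* over *Psmb9* was 0.651 and 0.543, 0.224 and 0.734, and 1.58 and 1.22, with Control on both sides of Unstimulated. *Psmb7* over *Psmb10* was 1.49 and 2.85, 17.1 and 8.32, and 6.54 and 11.4, highest in a Control library.

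**Figure D3:**
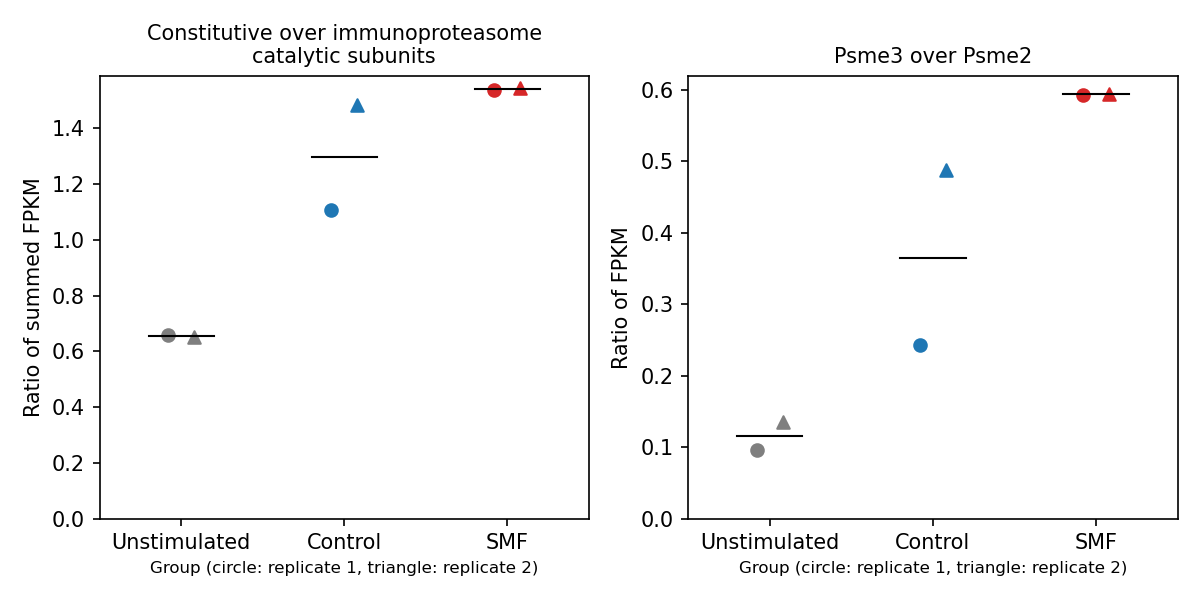
The left panel gives the summed FPKM of *Psmb5*, *Psmb6* and *Psmb7* over that of *Psmb8*, *Psmb9* and *Psmb10* in each library, the right panel the FPKM of *Psme3* over that of *Psme2*; black lines are means of the 2 libraries of a group. Both ratios are lowest in Unstimulated and highest in SMF, and the Control libraries are the furthest apart. Both use all transcripts, and the order of the right panel does not hold on coding transcripts only.

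The 6 ATPases of the base pull substrates into the core. In Control against Unstimulated 3 were called higher (*Psmc2*, *Psmc4* and *Psmc6*), and in SMF against Unstimulated all 6. In SMF against Control 2 were called higher (*Psmc1* and *Psmc4*). Of all genes, 12.3%, 22.4% and 12.5% were called higher in these comparisons. *Psmc4* had 0 coding FPKM in every Unstimulated and Control library, so its first call rests on transcripts not annotated as coding. *Psmc1* lay at 40.9 and 44.99 FPKM in Unstimulated, 81.2 and 67.5 in Control and 182 and 181 in SMF. Replicates were close and the groups apart. It was 4.16-fold higher in SMF than in Unstimulated (log2 2.06, SE 0.25, limma adjusted p = 0.00587) and 2.43-fold higher than in Control (log2 1.28, SE 0.25, limma adjusted p = 0.136). *Psmc2* lay at 9.37 and 14.99 FPKM, 48.8 and 41.9, and 81.8 and 88.4. The log2 fold change of *Psmc2* from Unstimulated to Control was 1.84 (SE 0.33, limma adjusted p = 0.0281), the largest of the ATPases in that comparison. *Psmc3* had the highest Unstimulated levels of the base, with 90.3 and 55.3 FPKM, against 94.3 and 119.7 in Control and 159 and 174 in SMF. *Psmc4*, *Psmc5* and *Psmc6* ranged from 3.94 to 50.7 FPKM in Unstimulated, 26.5 to 79.6 in Control and 56.5 to 127 in SMF. The spread among the 6 ATPases was widest in Unstimulated replicate 1, in which the highest was 22.9 times the lowest, and narrowest in SMF replicate 2 at 2.28 times.

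*Psmd1* and *Psmd2*, the large scaffolds of the base on which ubiquitin receptors and deubiquitinases dock, were called higher in all 3 comparisons. *Psmd2* lay at 20.4 and 22.2 FPKM in Unstimulated, 55.0 and 42.7 in Control and 112 and 106 in SMF. Each group was separate from the next. The log2 fold change of *Psmd2* was 1.15 from Unstimulated to Control (SE 0.28, limma adjusted p = 0.0577), 2.30 from Unstimulated to SMF (SE 0.28, limma adjusted p = 0.00587) and 1.15 from Control to SMF (SE 0.28, limma adjusted p = 0.145). The first call was lost without Control replicate 1 and the last without Control replicate 2. *Psmd1* had 8.08 and 13.4 FPKM, 26.3 and 27.1, and 72.1 and 63.7. *Psmd4*, a ubiquitin receptor, had 18.8 and 16.9 FPKM in Unstimulated, 10.9 and 34.8 in Control and 47.8 and 51.3 in SMF, with Control on both sides of Unstimulated, and was called in SMF against Unstimulated (log2 1.42, SE 0.54, limma adjusted p = 0.104).

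The lid trims ubiquitin from substrates. Of its 8 genes 2 were called higher in Control than in Unstimulated (*Psmd12* and *Psmd14*), 8 in SMF than in Unstimulated and 6 in SMF than in Control. These shares of 25.0%, 100% and 75.0% stand beside 12.3%, 22.4% and 12.5% of all genes. With 8 genes, the first lies near the share of all genes. *Psmd14*, the deubiquitinase, and *Psmd7*, its inactive partner in a dimer, did not follow the same course. *Psmd14* lay at 24.6 and 34.2 FPKM in Unstimulated, 58.6 and 70.2 in Control and 107 and 131 in SMF. The groups were in order and did not overlap. Its log2 fold change was 1.12 from Unstimulated to Control (SE 0.30, limma adjusted p = 0.0737) and 1.99 from Unstimulated to SMF (SE 0.30, limma adjusted p = 0.00961), and the former call was lost without Unstimulated replicate 1 or Control replicate 2. *Psmd7* lay at 37.1 and 13.8 FPKM in Unstimulated, 19.5 and 42.4 in Control and 141 and 137 in SMF. Unstimulated and Control overlapped, and the step to SMF was the largest among called members in that comparison (log2 2.23, SE 0.56, limma adjusted p = 0.150). That call was lost without Control replicate 1 or either SMF library. The difference between both courses was not tested. *Psmd14* over *Psmd7* was 0.664 and 2.48 in Unstimulated, 3.0 and 1.66 in Control and 0.757 and 0.958 in SMF, so the replicates differed by as much as the groups. *Psmd6* had a like course to *Psmd7*, with 37.5 and 23.0 FPKM, 18.5 and 41.6, and 89.3 and 78.4. *Psmd3*, *Psmd8*, *Psmd11*, *Psmd12* and *Psmd13* ranged from 5.16 to 29.5 FPKM in Unstimulated, 9.53 to 44.2 in Control and 30.9 to 121 in SMF. *Psmd11* shares sequence with 2 copies that summed to 66.5 to 85.7 FPKM, above the gene itself in every library, so its level depends on how reads were divided. *Psmd13* faces *Sirt3* across 329 shared bases.

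The activators replace or accompany the regulatory particle. Summed over all transcripts, *Psme3*, the nuclear activator, had the largest differences of the activators in all 3 comparisons. It lay at 9.17 and 14.4 FPKM in Unstimulated, 61.0 and 49.1 in Control and 104 and 120.2 in SMF. For *Psme3* the log2 fold change was 2.15 from Unstimulated to Control (SE 0.33, limma adjusted p = 0.0194), 3.18 from Unstimulated to SMF (SE 0.33, limma adjusted p = 0.00436) and 1.02 from Control to SMF (SE 0.33, limma adjusted p = 0.184). The last call was lost without Control replicate 2 or either SMF library. *Psme1* and *Psme2*, the interferon-inducible activator pair, neighbour each other at chr14:55578123-55581529 and chr14:55587441-55591113. By the same sums both began high and moved less, though most of their Unstimulated FPKM lay outside coding transcripts. *Psme1* lay at 56.8 and 52.0 FPKM, 58.2 and 77.2, and 112 and 144. It was not called in Control against Unstimulated (log2 0.30, SE 0.28, limma adjusted p = 0.545), was called in SMF against Unstimulated (log2 1.21, SE 0.28, limma adjusted p = 0.0299) and not in SMF against Control (log2 0.91, SE 0.28, limma adjusted p = 0.178). On coding transcripts only, that last difference was -0.026. *Psme2* lay at 96.02 and 107 FPKM, 252 and 101, and 176 and 202, so that Control replicate 1 was the highest library and Control replicate 2 level with the Unstimulated cells. It was called in no comparison (log2 0.65, 0.89 and 0.24, SE 0.43, limma adjusted p = 0.392, 0.183 and 0.784), and the last of these was -0.10 with libraries shifted to one median. On coding transcripts only, *Psme2* began low, with 0 and 4.60 FPKM in Unstimulated, 2.14 and 57.5 in Control and 101 and 139 in SMF. *Psme2b*, a single-exon gene that shares 794 bases with *Psme2* at 99.4% identity, had 28.0 to 45.9 FPKM in the Unstimulated and Control libraries and 69.7 and 77.1 in SMF, and reads of the pair cannot be told apart with certainty.

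Within libraries and over all transcripts, *Psme3* was 0.0955 and 0.135 of *Psme2* in Unstimulated, 0.242 and 0.487 in Control and 0.592 and 0.594 in SMF. These 3 groups did not overlap. On coding transcripts only, *Psme3* had 9.17 and 13.4 FPKM in Unstimulated, 61.0 and 38.9 in Control and 100.4 and 105 in SMF. In Unstimulated it thus lay above the 0 and 4.60 coding FPKM of *Psme2*, and the order of the ratio did not hold. *Psme4*, the large activator with a role in acetylated histone turnover, was low throughout, at 4.53 and 4.46 FPKM, 11.3 and 9.45, and 12.6 and 15.3. Its log2 fold change was 1.05 from Unstimulated to Control (SE 0.39, limma adjusted p = 0.152), 1.44 from Unstimulated to SMF (SE 0.39, limma adjusted p = 0.0446) and 0.39 from Control to SMF (SE 0.39, limma adjusted p = 0.587). The first call was lost without Control replicate 1 or either SMF library, and the second without SMF replicate 2. *Psmf1*, an inhibitor of the core in vitro, lay at 1.44 and 6.26 FPKM, at 0 and 5.44, and at 10.5 and 10.7.

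The assembly factors were the least abundant of the role groups. In Control against Unstimulated 1 of 6 was called higher, in SMF against Unstimulated 2 of 6 and in SMF against Control 0 of 6, with medians of 0.53, 1.53 and 0.84 on the log2 scale. These shares of 16.7%, 33.3% and 0% stand beside 12.3%, 22.4% and 12.5% of all genes, and with 6 genes they lie near them. *Psmg1* and *Psmg2*, which pair to build the alpha ring, and *Psmg3* were all listed at 0 in Unstimulated replicate 1. *Psmg2* lay at 0 and 2.0 FPKM in Unstimulated, 6.47 and 7.18 in Control and 14.3 and 15.8 in SMF. It was called higher in Control (log2 2.17, SE 0.63, limma adjusted p = 0.0864) and in SMF (log2 3.21, SE 0.63, limma adjusted p = 0.0181) than in Unstimulated. The values were 1.38 and 2.42 without Unstimulated replicate 1 and 2.97 and 4.0 without replicate 2, and the former call was lost without either Control library. *Psmg1* lay at 0 and 3.37, 0 and 9.47, and 20.5 and 11.4 FPKM, and *Psmg3* at 0 and 3.96, 6.39 and 4.40, and 8.41 and 13.4. *Psmg3* was called in SMF against Unstimulated (log2 2.38, SE 0.82, limma adjusted p = 0.0822), and *Psmg1* in no comparison. The 3 chaperones of the base, *Psmd5*, *Psmd9* and *Psmd10*, ranged from 3.76 to 9.17 FPKM in Unstimulated, 4.78 to 12.2 in Control and 6.20 to 16.5 in SMF. None of them was called. *Psmd5* had the smallest unadjusted p of the group in SMF against Control, with 7.48 and 6.71 FPKM against 16.5 and 10.5 (log2 0.81, SE 0.42, limma adjusted p = 0.323). The median FPKM of the assembly factors was 0.110 to 0.195 of that of the core subunits in all 6 libraries, with no order by group. *Psmc3ip*, which is no subunit, had 123 and 23.1 FPKM in Unstimulated, 116 and 132 in Control and 102 and 94.3 in SMF, and was not called.

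Much of the proteasome FPKM of fresh cells was assigned to transcripts annotated as retaining an intron. Coding transcripts held 51.3% and 51.9% of the members' FPKM in Unstimulated, 63.6% and 78.3% in Control and 81.8% and 83.2% in SMF. Over the other 10254 protein-coding genes tested, the shares were 68.9% and 70.7%, 71.0% and 73.5%, and 78.5% and 77.7%. The members thus lay below the other genes in Unstimulated and above them in SMF, a comparison given without a test. In FPKM, retained-intron transcripts of the members summed to 341 and 345 in Unstimulated, 477 and 328 in Control and 468 and 594 in SMF. The coding transcripts summed to 504 and 513, 1141 and 1651, and 3158 and 3291. *Psmc3ip*, which is no subunit, held 123 and 2.05 FPKM of these in Unstimulated, 116 and 126 in Control and 99.9 and 92.3 in SMF. Without it, the coding sums and coding shares of the Unstimulated libraries lie further apart. The share on coding transcripts differed widely by gene. It was 100% in every library for *Psma2*, *Psma5*, *Psmb5*, *Psmd10*, *Psmd12* and *Psme2b*. *Psmc4* had 0 coding FPKM in all Unstimulated and Control libraries and 72.4 and 32.7 in SMF. Coding FPKM of *Psme2* was 0 and 4.60 in Unstimulated, 2.14 and 57.5 in Control and 101 and 139 in SMF. That of *Psme1* was 6.91 and 22.4, 32.7 and 30.9, and 32.7 and 29.7, level in the stimulated libraries. The division of reads among overlapping transcripts is an estimate by StringTie, and the depth of the libraries differs beside these shares.

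**Figure D4:**
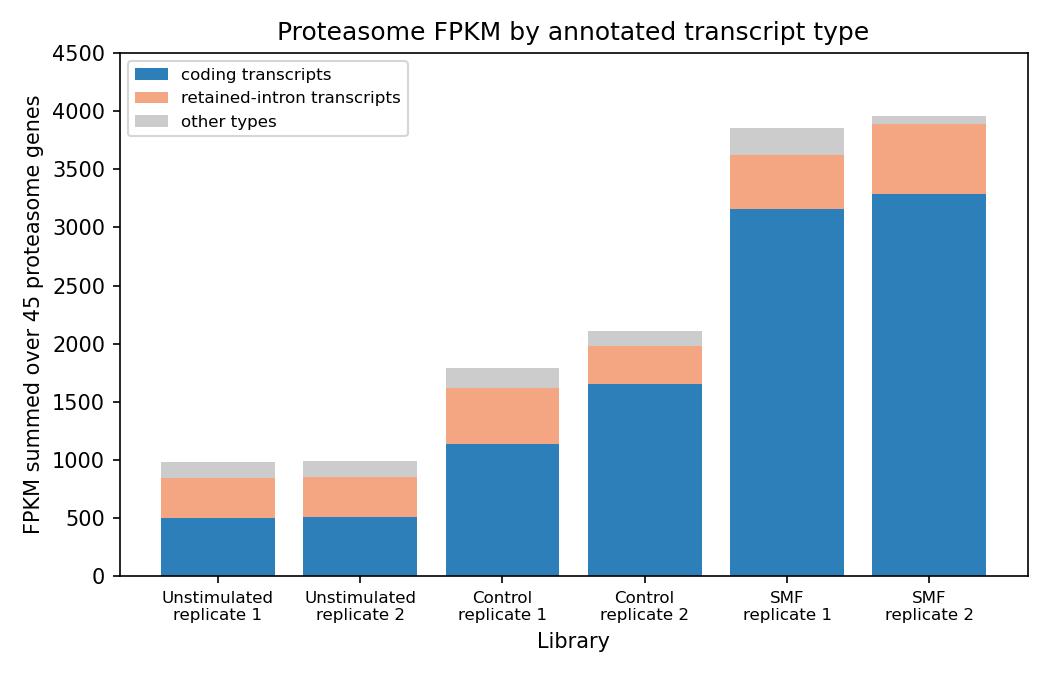
Bars give the FPKM of the 45 proteasome genes summed in each library, split into transcripts annotated as coding, as retaining an intron and as other types. The coding part grows from 504 and 513 in Unstimulated to 3158 and 3291 in SMF, while the retained-intron part stays between 328 and 594. The bars include *Psmc3ip*, which is no subunit and differs widely between the Unstimulated libraries.

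Of the pathway genes outside the members, taken from a list of proteins that join, regulate or feed the proteasome, 32 were tested. In Control against Unstimulated 4 were called higher and 1 lower, in SMF against Unstimulated 16 higher and 0 lower, and in SMF against Control 8 higher and 0 lower, with medians of 0.58, 1.32 and 0.96 on the log2 scale. The shares called higher were thus 12.5%, 50% and 25.0%, beside 12.3%, 22.4% and 12.5% of all genes, so that the first lay at the share of all genes. *Pomp*, the maturation factor of the core, lay at 9.01 and 11.99 FPKM in Unstimulated, 21.6 and 21.6 in Control and 64.5 and 58.6 in SMF, and was called higher in SMF than in Unstimulated (log2 2.46, SE 0.32, limma adjusted p = 0.00653) and than in Control (log2 1.47, SE 0.32, limma adjusted p = 0.140). *Sem1*, the smallest lid subunit, lay at 17.1 and 17.9, 46.1 and 44.9, and 78.6 and 100.4 FPKM, and was called higher in Control than in Unstimulated (log2 1.33, SE 0.28, limma adjusted p = 0.0419). *Adrm1*, a ubiquitin receptor of the base, had 7.97 and 20.9, 14.2 and 26.9, and 49.6 and 46.7 FPKM. Of the 6 regulators, the transcription factor *Nfe2l1* was called higher in Control than in Unstimulated, with 9.19 and 6.36 against 18.4 and 17.7 FPKM (limma adjusted p = 0.124), and had 17.2 and 24.2 in SMF. *Nfe2l2*, its relative in the oxidative stress response, was called lower in Control than in Unstimulated, with 10.9 and 24.6 against 6.87 and 6.20 FPKM (limma adjusted p = 0.176), and had 11.4 and 9.39 in SMF. None of the 6 regulators was called in SMF against Control. Among the 14 genes of ubiquitin and its carriers, 7 were called higher in SMF than in Unstimulated and 4 in SMF than in Control. Those 4 were the ubiquitin genes *Ubb* and *Rps27a*, the shuttle *Ubqln4* and the unfoldase *Vcp*, with log2 fold changes of 1.34 (SE 0.28), 1.45 (SE 0.23), 1.35 (SE 0.38) and 1.40 (SE 0.31) and limma adjusted p-values of 0.138, 0.136, 0.168 and 0.141.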

How the data were processed

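RNA-Seq libraries were prepared by the authors from total RNA with a SMARTer Stranded Pico kit and sequenced on an Illumina HiSeq X system. The submitters' processing notes name Trimmomatic 0.36, HISAT2 and StringTie, and the file headers give StringTie 1.3.5, restricted to annotated transcripts, with GENCODE M19. The authors deposited 1 transcript file per library with FPKM, TPM and coverage, normalized by StringTie for library size and length except coverage. No read counts were used here, so precision from counting is unknown, and a deposited 0 is only a listing at 0. A further table of 3 value columns matches no sample and was not used here. FPKM was summed here over the 137767 transcripts by gene. Depth is deposited coverage times transcript length. Transcript types were taken from GENCODE M21. Members and lists were chosen with earlier results of these data known. Limma 3.58.1 in R 4.3.3 was fitted to log2(FPKM + 1) in 3 groups with a variance trend, with 3 residual degrees of freedom, over 14991 genes averaging 1 FPKM or more, and p-values were adjusted by Benjamini-Hochberg; a call needed a fold change of 2 and p of 0.05. Statistics were named for the catalytic subunits and the activators *Psme1* to *Psme4* in every comparison, for the member of each role with the smallest p, and for the 3 largest rises and falls among called members. The lowest or highest gene of a role, *Psmb2* and *Psmd4* among them, and all values beyond this rule were added after their values were seen. Similar sequences were searched with minimap2 2.31 (at least 200 bases, 90% identity). The fit was tested on simulated data. Alternatives were other pseudocounts, filters, scalings, TPM, variance models, only the libraries compared, a fold change of 1.5, a replicate block, each library left out and, chosen after seeing the data, coding transcripts only. The search for motifs and the split by transcript type were also added then. Tables were handled with Python 3.11.15 and pandas 2.3.3.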

Additional observations from a re-analysis of the deposited data

How the results depend on the processing

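In every alternative run, 0 members were called lower, and the members' median stayed above 0 in all 3 comparisons. For SMF against Control, 9 members were called higher with libraries shifted to one median, 9 with one summed FPKM over protein-coding genes and 9 with coding transcripts only scaled to one sum, against 21. Of all genes in these 3 fits, 5.85%, 6.21% and 7.51% were called higher, against 12.5%. The first and second of these gave medians of 0.82 and 0.83 for the members. With gene TPM 27 members were called, beside 14.7% of all genes. For SMF against Unstimulated, the median moved to 1.72 with one summed FPKM over protein-coding genes and to 2.75 with coding transcripts only. Leaving out each library in turn, members called higher ranged from 10 to 18 for Control against Unstimulated and from 9 to 26 for SMF against Control, and the medians from 0.71 to 1.13 for Control against Unstimulated, from 1.85 to 2.27 for SMF against Unstimulated and from 0.94 to 1.31 for SMF against Control. Single genes changed sign as follows. *Psmb6* in Control against Unstimulated had a log2 fold change of -0.083 with gene TPM and -0.087 with one summed FPKM over protein-coding genes, and ranged from -0.87 to 0.99 with libraries left out. *Psme1* in SMF against Control had -0.026 with coding transcripts only and -0.46 with these scaled to one sum. *Psme2* in SMF against Control had -0.10 with libraries shifted to one median and -0.087 with one summed FPKM over protein-coding genes, and ranged from -0.41 to 0.90 with libraries left out; in Control against Unstimulated it ranged from -0.0072 to 1.31. The cause of these changes was not tested. With a replicate block, 20, 37 and 24 members were called higher in the 3 comparisons, beside 12.1%, 22.4% and 12.3% of all genes. Of these members, 18, 36 and 21 were called without it. Deviations of same-numbered libraries correlated at 0.096 between Unstimulated and Control, whose pairs share a header date, and at 0.030 and 0.021 with SMF, so the numbers were not taken to pair samples. With only the 4 libraries compared in the fit, 14, 35 and 19 were called, beside 10.1%, 22.3% and 10.7% of all genes. For Control against Unstimulated, 0 members had an adjusted p under 0.05 in that fit. Depth was lowest in replicate 1 of Unstimulated and Control, and its effect on single genes was not tested.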
